A study of Neurospora crassa with 12 samples.

Results

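NCU03921 and NCU09629 are 2 of the 9730 Neurospora crassa genes in the deposited count tables. They were chosen by their measured values: both had fewer counts in libraries labelled Δpac-3 than in libraries labelled Δmus-52 when inorganic phosphate (Pi) was scarce, and more when it was plentiful. The strain contrasts of both genes are therefore a description and carry no p-value. Both genes passed the filter on low counts in all contrasts. The study grew conidia, the asexual spores of this filamentous fungus, for 5 h at 30 °C in medium of pH 5.4 (50 mM sodium citrate) that held 44 mM sucrose, and sequenced RNA of the mycelium. The 4 groups were Δpac-3 in high-Pi (10 mM), Δpac-3 in low-Pi (10 µM), Δmus-52 in high-Pi and Δmus-52 in low-Pi, with 3 biological replicates numbered I, II and III in each.

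PAC-3 is the fungal transcription factor of ambient pH signalling, and mus-52 encodes a protein of non-homologous end joining whose loss is used to ease gene replacement. Per the study's methods, the Δpac-3 strain carries the bar gene in place of the pac-3 open reading frame and was made from a mus-52 knockout, so that the labels imply a mus-52 deletion in every group. The counts went against that label. The mus-52 gene (NCU00077) had between 0 and 1.04 CPM (counts brought to one common library size with TMM factors) in the 6 libraries labelled Δpac-3, against 19.7 to 24.9 CPM in the 6 libraries labelled Δmus-52. For pac-3 (NCU00090) the ranges were 130 to 183 CPM under the Δpac-3 label and 353 to 523 CPM under the Δmus-52 label, so counts over the locus were lower but not at 0. The names Δpac-3 and Δmus-52 therefore stand for the labels of the libraries only, and every strain direction is between labels. The Δpac-3 conidia came from cultures of 10 days and the Δmus-52 conidia from cultures of 5 days, so strain and culture age cannot be told apart. The libraries held from 20240314 to 82211503 counts, and the Pearson correlation of log2 CPM between replicates was between 0.968 and 0.994.

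NCU03921 is annotated as a mitochondrial chaperone bcs1. In yeast, Bcs1 is an AAA ATPase of the inner mitochondrial membrane that inserts the Rieske iron-sulphur protein into respiratory complex III, the late step that completes this enzyme. NCU09629 is annotated as a hypothetical protein, and no role is given for it here. In fungi, Pi shortage is known to induce phosphatases and Pi transporters through the NUC-1 pathway.

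In the NC12 assembly NCU03921 lies on chromosome VI at chrVI:2138394-2141840, a span of 3447 bp at place 578 of 1068 genes on that chromosome. NCU09629 lies on chromosome II at chrII:19764-23982, a span of 4219 bp, and is gene 6 of 1100 from the start of the chromosome. NCU03921 shares 103 bp with the annotated gene NCU03922 and NCU09629 shares 145 bp with NCU09630, and whether strand was used in counting is not given in the sources used here. The primers with which the study assayed these transcripts by RT-qPCR show which transcripts were measured by a second assay. They are written 5′ to 3′, with the 5 bases at the 3′ end, where extension begins, in capitals.
NCU03921 forward: aaaagaccgacatcacTGCAC
NCU03921 reverse: gggaacaacttgaaccCTGAT
NCU09629 forward: gtggtagggcagctggATTAT
NCU09629 reverse: caacatcattgccaacTCTCC
Each primer has 21 bases. The GC content was 47.6% for both NCU03921 primers and for the NCU09629 reverse primer, and 52.4% for the NCU09629 forward primer. The RT-qPCR values were not used here.

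NCU03921 had 8902, 5159 and 7225 counts in libraries I, II and III labelled Δpac-3 in low-Pi, which are 107, 231 and 248 CPM. In low-Pi the libraries labelled Δmus-52 held 25842, 24338 and 21023 counts, or 593, 868 and 1076 CPM. Every low-Pi library labelled Δpac-3 lay below every one labelled Δmus-52. In high-Pi the gene had 2171, 10182 and 11560 counts in libraries I, II and III labelled Δpac-3, or 71.3, 307 and 333 CPM, against 1742, 881 and 3781 counts, or 29.3, 33.8 and 96.0 CPM, in those labelled Δmus-52. Here the strains overlapped, since library I labelled Δpac-3 lay below library III labelled Δmus-52. The smallest of these counts was 881, so counting error was small beside the spread between replicates.

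In low-Pi, NCU09629 was counted 11634, 6226 and 8468 times in Δpac-3 libraries I, II and III, equal to 140, 278 and 291 CPM. Those labelled Δmus-52 held 26821, 23101 and 20337 counts, equal to 615, 824 and 1041 CPM, again without overlap. In high-Pi it had 3916, 15951 and 14390 counts, or 129, 481 and 414 CPM, under the Δpac-3 label, against 3316, 1421 and 4915 counts, or 55.7, 54.5 and 125 CPM, under the Δmus-52 label. The high-Pi strains were separate for this gene by a narrow margin, 129 CPM in library I labelled Δpac-3 beside 125 CPM in library III labelled Δmus-52. In bulk RNA, fewer cells of a type and less RNA per cell cannot be told apart.

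**Figure D1:**
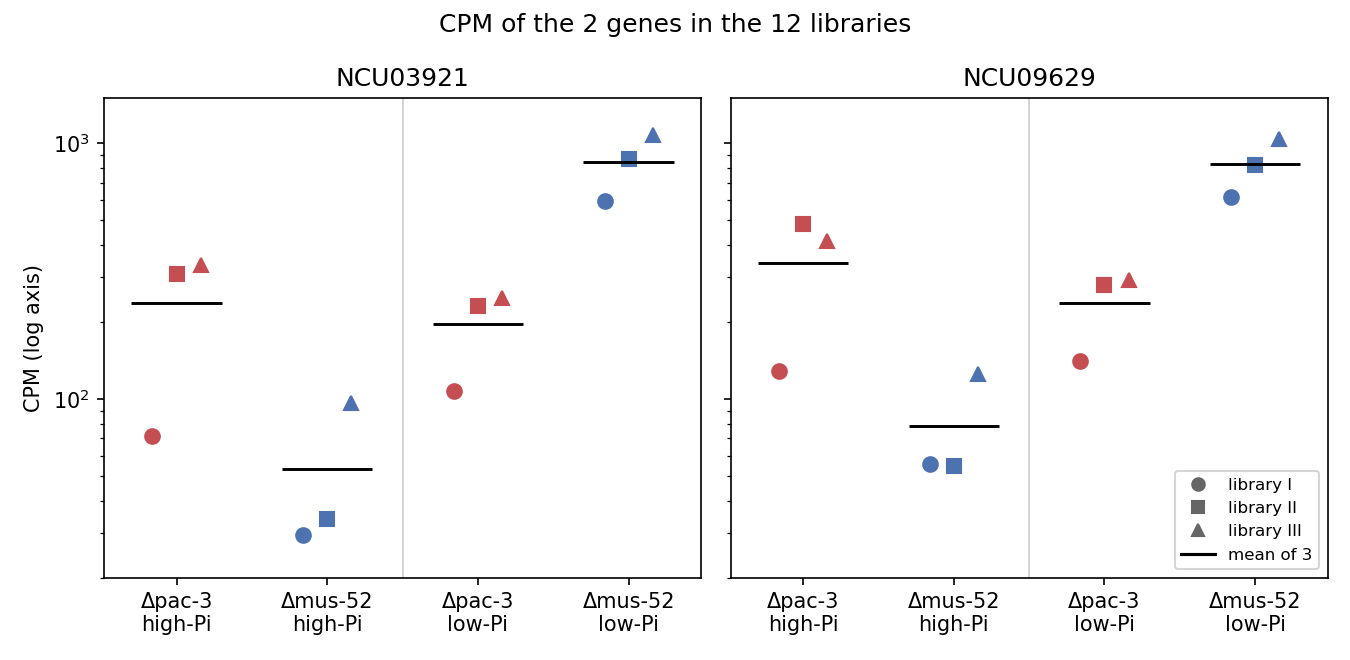
CPM on a log axis of NCU03921 (left) and NCU09629 (right) in each of the 12 libraries, with a symbol for each replicate number and a black line at the mean of the 3 libraries of a group. The mean is lowest in Δmus-52 high-Pi (53.0 CPM for NCU03921) and highest in Δmus-52 low-Pi (846 CPM), with both Δpac-3 means between, and library I of Δpac-3 high-Pi lies among the Δmus-52 high-Pi libraries for NCU03921.

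The order of the groups was the same for both genes. The mean of NCU03921 was 237 ± 144 CPM in Δpac-3 high-Pi, 195 ± 76.7 CPM in Δpac-3 low-Pi, 53.0 ± 37.3 CPM in Δmus-52 high-Pi and 846 ± 243 CPM in Δmus-52 low-Pi (SD, n = 3 each). For NCU09629 the means were 341 ± 187, 237 ± 83.5, 78.4 ± 40.2 and 827 ± 213 CPM in the same 4 groups. The Δmus-52 low-Pi libraries stood above all other libraries, without overlap. The 2 Δpac-3 groups overlapped for both genes and did not differ beyond their spread. The Δmus-52 high-Pi libraries lay below all Δpac-3 low-Pi libraries for both genes, and overlapped with the Δpac-3 high-Pi libraries for NCU03921 only by library I. How many of all genes show such separations was not counted here. The genes were chosen in these same libraries, so nothing is read from the separations.

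The group that moved with Pi was Δmus-52. In its libraries NCU03921 fell to 6.27% of its low-Pi mean in high-Pi and NCU09629 to 9.48%, and for both genes all 3 high-Pi libraries lay below all 3 low-Pi libraries, as they did for 22.8% of the 8190 genes tested. The log2 fold change of high-Pi over low-Pi was -4.01 (SE 0.44, 95% interval -5.0 to -3.03) for NCU03921 and -3.42 (SE 0.33, 95% interval -4.16 to -2.68) for NCU09629. Ordered from the most negative log2 fold change, they had ranks 6 and 17 of 8190. Both were among the 285 genes, 3.48% of those tested, that passed an adjusted p below 0.05 and a log2 fold change of at least 1.5 downwards in edgeR's quasi-likelihood test. Only 10 genes passed upwards in these libraries. The rule was applied to the same libraries, so nothing about the members is read from these shares.

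With all libraries kept, the same genes showed no shift beyond the replicate spread in the libraries labelled Δpac-3. The log2 fold change of high-Pi over low-Pi was 0.28 (SE 0.55, 95% interval -0.99 to 1.55) for NCU03921 and 0.53 (SE 0.48, 95% interval -0.57 to 1.64) for NCU09629, so that a moderate shift of either sign lies within the interval of both. Their ranks from the most negative value were 7159 and 7902 of 8348. No gene was called for Pi in these libraries by edgeR's quasi-likelihood test (0% of 8348), where 413 genes had an unadjusted p below 0.05, and DESeq2 called 5. The spread was wider in this contrast than in the Pi contrast of the libraries labelled Δmus-52, with biological coefficients of variation of 0.208 and 0.12 over all genes. With 1 library left out, the Δpac-3 value lay between -0.05 and 0.71 for NCU03921. For NCU09629 it lay between 0.20 and 0.92. Both highest values came without high-Pi library I (SE 0.32 and 0.29). With all libraries numbered I left out, chosen after seeing the data, the values were 0.42 (SE 0.13) and 0.66 (SE 0.14).

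The opposite strain contrasts follow from these 4 levels. In low-Pi the log2 fold change of Δpac-3 over Δmus-52 was -2.11 (SE 0.31, 95% interval -2.79 to -1.43) for NCU03921 and -1.80 (SE 0.27, 95% interval -2.40 to -1.20) for NCU09629. In high-Pi it was 2.15 (SE 0.66, 95% interval 0.62 to 3.68) and 2.12 (SE 0.53, 95% interval 0.88 to 3.35) for the same genes. The difference of both contrasts was 4.27 (SE 0.82, 95% interval 2.49 to 6.06) for NCU03921 and 3.93 (SE 0.67, 95% interval 2.47 to 5.39) for NCU09629, with a sign that the choice of the genes fixed. For comparison, edgeR called 4.32% of 8269 genes lower in low-Pi, 7.24% of 8284 genes higher in high-Pi and 7.53% of 8465 genes above 0 in the difference. The libraries of the strains were separate in the members' direction for 29.8% of genes in low-Pi, where both members were, and for 25.7% in high-Pi, where NCU09629 was and NCU03921 was not. The rule used these contrasts, and nothing is read from the shares.

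Relative to the Δmus-52 mean in high-Pi, library I labelled Δpac-3 contributed a log2 difference of 0.64 for NCU03921, while libraries II and III contributed 2.75 and 2.86. For NCU09629 the differences were 0.83, 2.73 and 2.52 in libraries I, II and III. On the other side, library III labelled Δmus-52 was the high one: the Δpac-3 mean exceeded it by 1.01 for NCU03921 and 1.24 for NCU09629, but exceeded libraries I and II by 2.73 and 2.52 for NCU03921 and by 2.40 and 2.43 for NCU09629. Library I labelled Δpac-3 and library III labelled Δmus-52 thus held the smallest high-Pi differences of both genes. In low-Pi, library I labelled Δpac-3 was the lowest, at -2.93 for NCU03921 and -2.52 for NCU09629, and libraries II and III lay between -1.83 and -1.47.

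With a library left out, no strain contrast of either gene changed sign. The low-Pi log2 fold change lay between -2.32 and -1.83 for NCU03921 and between -1.98 and -1.55 for NCU09629. The high-Pi value lay between 1.83 (without Δpac-3 III) and 2.89 (without Δmus-52 III) for NCU03921, and between 1.80 (without Δpac-3 II) and 2.61 (without Δmus-52 III) for NCU09629. Passing both thresholds of the test in both Pi conditions rested on high-Pi libraries. When high-Pi library II labelled Δpac-3 was left out, or high-Pi library I or II labelled Δmus-52, neither gene passed them, and 1 of the 2 passed without library III labelled Δpac-3. Both passed without any 1 of the other 8 libraries and, as an alternative chosen after seeing the data, without all 4 libraries numbered I. The choice of the genes used these same contrasts, so passing is a description and no support for them.

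**Figure D2:**
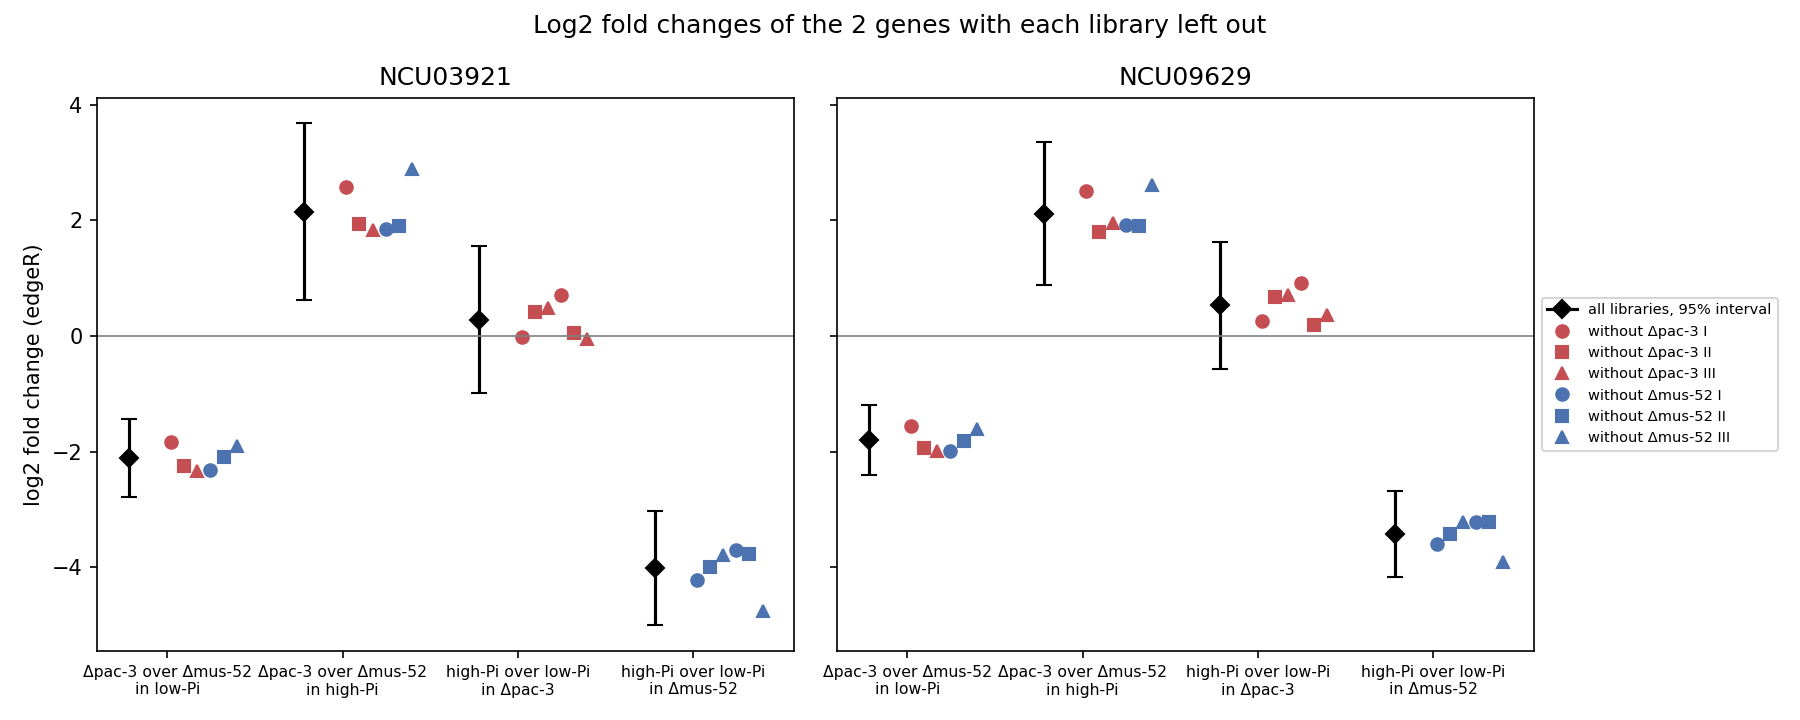
Log2 fold changes of NCU03921 (left) and NCU09629 (right) for the strain in low-Pi, the strain in high-Pi, and Pi under each strain label. Black diamonds with bars are edgeR values with 95% intervals, and coloured symbols are the values with 1 library left out, where a symbol can stand for the low-Pi or the high-Pi library of that number in the Pi contrasts. With 1 library left out, the high-Pi strain values reach from 1.80 to 2.89 and the Δpac-3 values for Pi from -0.05 to 0.92.

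The spread within groups was shared by the genes. NCU03921 was lowest in library I and highest in library III of all 4 groups. NCU09629 was lowest in library I of 3 groups, with library II of Δmus-52 high-Pi at 54.5 CPM beside 55.7 CPM in library I. The highest over lowest fold within a group was largest in Δpac-3 high-Pi, 4.66 for NCU03921 and 3.73 for NCU09629, and smallest in Δmus-52 low-Pi, 1.82 and 1.69 for the same genes. Library I was also the deepest of its group in all groups but Δpac-3 high-Pi, where it was the shallowest. The part of depth in these levels was not tested.

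Per kb of gene span, which allows a comparison between genes, NCU03921 had 68.7 CPM per kb in Δpac-3 high-Pi, 56.7 in Δpac-3 low-Pi, 15.4 in Δmus-52 high-Pi and 245 in Δmus-52 low-Pi. These levels held ranks 901, 1070, 3587 and 295 from the top of 9729 genes. NCU09629 had 80.9, 56.1, 18.6 and 196 CPM per kb in the same groups, at ranks 728, 1084, 3147 and 362. The genes were of similar level per kb in each group. The ratio of NCU09629 to NCU03921 per kb was 1.26 ± 0.229 in Δpac-3 high-Pi, 1.00 ± 0.0572 in Δpac-3 low-Pi, 1.31 ± 0.247 in Δmus-52 high-Pi and 0.805 ± 0.0383 in Δmus-52 low-Pi (SD, n = 3 each). NCU09629 was the higher one in every high-Pi library, and NCU03921 in every Δmus-52 low-Pi library.

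Of 8203 genes tested in both Pi conditions, 7 were called lower in Δpac-3 in low-Pi and higher in high-Pi, 0.0853%, a count that rested on single high-Pi libraries: it dropped to 0 if library II labelled Δmus-52 was omitted, to 1 if library I labelled Δmus-52 or II labelled Δpac-3 was, and reached 17 if library I labelled Δpac-3 was. None was called the other way round by edgeR (0 at an unadjusted p below 0.05 with the fold thresholds) or by DESeq2. The 7 genes were both members and NCU02740, NCU05707, NCU07108, NCU07149 and NCU09603. The members were the most abundant of them: in Δmus-52 low-Pi, where each of the 7 genes had its highest mean, the other 5 had levels between 4.65 (NCU05707) and 20.1 (NCU07149) CPM per kb, beside 245 for NCU03921 and 196 for NCU09629. NCU07149, annotated as a hypothetical protein, had 3.32, 14.3 and 18.1 CPM in Δpac-3 high-Pi against 1.23, 1.61 and 4.24 CPM in Δmus-52 high-Pi, with library I low in the first group and library III high in the second, as for the members.

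These 5 genes were selected by their strain calls in the same libraries, so their Pi contrasts are likewise a description. In the libraries labelled Δmus-52 the Pi contrast was negative for each of them, with log2 fold changes from -4.73 (NCU05707) to -2.24 (NCU07108). In the libraries labelled Δpac-3 it lay between 0.03 and 0.57 for 4 of them, close to the members' 0.28 and 0.53, and at 1.48 (SE 0.44) for NCU07108. NCU07108 had 7.20, 14.7 and 3.97 CPM in Δpac-3 high-Pi against 2.92, 3.35 and 3.02 CPM in Δpac-3 low-Pi, and its adjusted p was 0.928 in edgeR's quasi-likelihood test. NCU02740 and NCU05707 were near the limit of counting in Δmus-52 high-Pi, with 25, 4 and 22 counts for NCU02740 and 14, 2 and 6 counts for NCU05707 in libraries I, II and III.

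**Figure D3:**
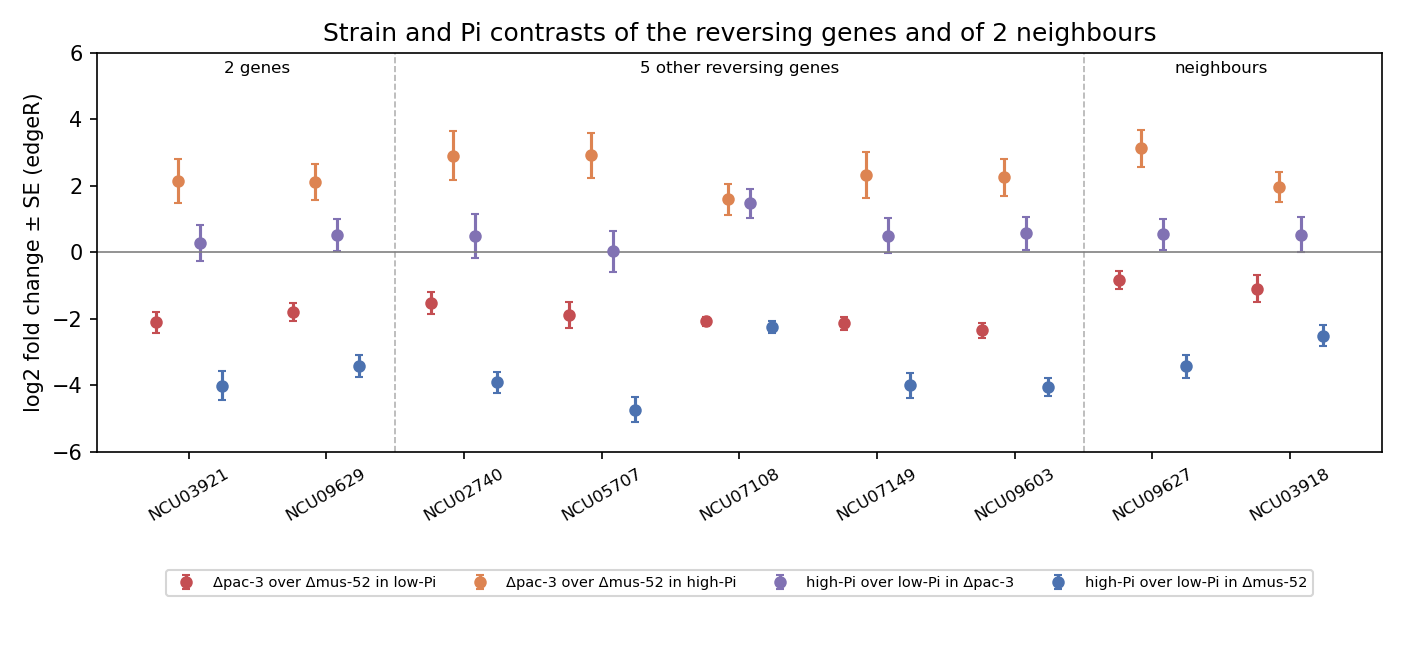
Log2 fold changes with their SE for the 2 genes, the 5 other genes called in opposite directions and the neighbours NCU09627 and NCU03918, with a colour for each of the 4 contrasts. The Pi values in the libraries labelled Δmus-52 are negative for all 9 genes, and those in the libraries labelled Δpac-3 lie between 0.03 and 0.57 except for NCU07108 at 1.48.

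Genes of similar pattern were ranked by the Pearson correlation of log2 CPM over the 12 libraries among 8464 genes, as a description: the points share library and depth, and both members were chosen for one pattern over these 4 groups, so that a high correlation between them restates the choice. For NCU03921 the closest were NCU07149 (r = 0.995), NCU09629 (r = 0.993), NCU03719 (r = 0.991), NCU07134 (r = 0.990) and NCU07135 (r = 0.989). For NCU09629 they were NCU03921 (r = 0.993), NCU03719 (r = 0.993), NCU07134 (r = 0.991), NCU09603 (r = 0.990) and NCU07149 (r = 0.989). The same 5 genes led each list with RLE scaling.

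NCU03719, NCU07134 and NCU07135 had the same signs as the members with smaller steps, and none was called in a strain contrast. NCU03719 and NCU07134 missed the calls by the fold threshold only. These genes were picked for likeness to the members in the same libraries, so their p-values are no support. The strain contrast of NCU07134 on the log2 scale was -1.16 when Pi was low and 1.49 when it was high (adjusted p = 0.000364 and 0.0268, edgeR). That of NCU07135 was -1.37 and 1.27. Per kb, NCU07135 was near the members in level, 205 CPM per kb in Δmus-52 low-Pi. It had 159, 307 and 284 CPM in Δpac-3 low-Pi against 557, 678 and 712 CPM in Δmus-52 low-Pi, and 123, 322 and 449 CPM in Δpac-3 high-Pi against 94.2, 90.4 and 184 CPM in Δmus-52 high-Pi. Its strains overlapped in high-Pi, as for NCU03921, and its adjusted p there was 0.0733 in edgeR. The smallest steps were those of NCU03719, -0.67 at low Pi and 0.75 at high Pi (adjusted p = 0.00175 and 0.0311, edgeR).

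Among the 2 genes on each side, each member had 1 neighbour called lower in high-Pi in the libraries labelled Δmus-52. Over all genes, 285 of 8190 (3.48%) were called lower there. Next to NCU09629, the hypothetical protein gene NCU09627 starts 2864 bp away. It had 14.6, 55.6 and 33.8 CPM in Δpac-3 high-Pi against 3.13, 2.42 and 6.25 CPM in Δmus-52 high-Pi, without overlap, as did 25.7% of 8284 genes. Its low-Pi libraries held 15.3, 25.4 and 31.3 CPM in Δpac-3 against 32.8, 35.2 and 59.5 CPM in Δmus-52. The log2 fold change of high-Pi over low-Pi for NCU09627 was -3.43 (SE 0.34, adjusted p = 8.11e-05 by edgeR's quasi-likelihood test) in the libraries labelled Δmus-52, beside -3.42 for NCU09629, and 0.54 in those labelled Δpac-3, beside 0.53. Its strain contrast in low-Pi, -0.82, was under the threshold of 1.5 (adjusted p = 0.0296, edgeR), and it was 3.13 in high-Pi (adjusted p = 0.00498, edgeR).

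Next to NCU03921, NCU03918 is 2535 bp away and lower in level, at 2.52 CPM per kb in Δmus-52 low-Pi beside 245 for NCU03921. It had 0.986, 1.81 and 3.08 CPM in Δpac-3 high-Pi against 0.538, 0.384 and 0.559 CPM in Δmus-52 high-Pi. Its Pi contrast in the libraries labelled Δmus-52 was -2.51 (SE 0.32, adjusted p = 0.000373, edgeR's quasi-likelihood test). NCU03922, which overlaps NCU03921, had a Pi contrast of 0.33 in these libraries and strain contrasts of 0.05 (low-Pi) and -0.26 (high-Pi, not called), so it did not share the pattern of NCU03921. NCU09630, which overlaps NCU09629, had only 105 counts in the 12 libraries and was not tested in any contrast. The other neighbours within 2 places, NCU03915, NCU03924, NCU09631 and NCU16498, had Pi contrasts between -0.19 and -0.04 in the libraries labelled Δmus-52.

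**Figure D4:**
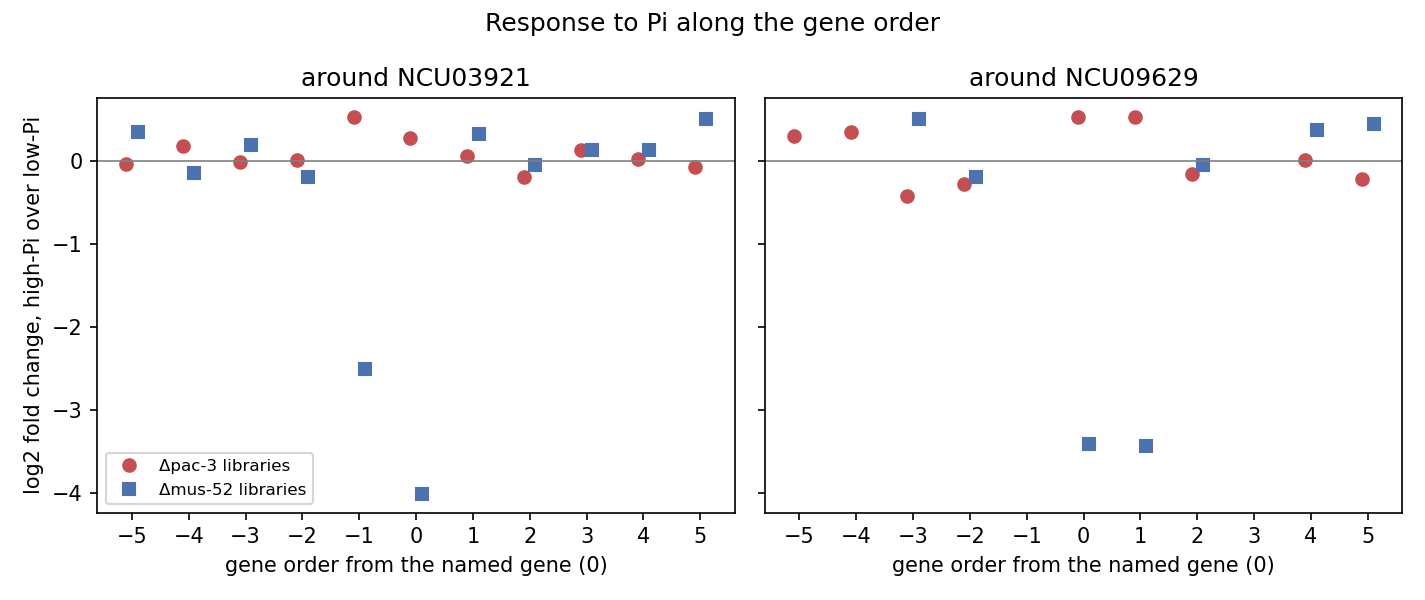
Log2 fold change of high-Pi over low-Pi against gene order, up to 5 genes on each side of NCU03921 (left) and NCU09629 (right), with circles for the libraries labelled Δpac-3 and squares for those labelled Δmus-52. Genes that failed the filter on low counts in a contrast have no symbol there. Beside the named genes at 0, only NCU03918 (-2.51) and NCU09627 (-3.43) have a large negative value in the libraries labelled Δmus-52.

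Subunits of complex III, the enzyme that BCS1 helps to assemble in yeast, did not fall with NCU03921. Product names came only from the study's list of modulated genes, and a search of them for this complex found no gene. Genes outside that list could not be found in this way, so 3 subunits were taken by symbol after the files were seen. Whether NCU03921 is the counterpart of yeast Bcs1 was not examined. In the libraries labelled Δmus-52, where NCU03921 had its log2 fold change of -4.01 with Pi, fes-1 (NCU06606), which encodes the Rieske protein, had 0.49 (adjusted p = 0.00727), qcr7 (NCU08940) had 0.52 (adjusted p = 0.00589) and qcr8 (NCU08947) had 0.67 (adjusted p = 0.00257) in edgeR's test, all of opposite sign to NCU03921 and under the threshold of 1.5. The fes-1 gene had 592, 553 and 498 CPM in Δmus-52 high-Pi against 414, 398 and 337 CPM in Δmus-52 low-Pi. None of the 3 was called in a strain or Pi contrast by edgeR or DESeq2. All 3 had an unadjusted p below 0.05 in this Pi contrast and in the strain contrast in high-Pi. Over all genes, so did 3560 of 8190 and 3876 of 8284 in edgeR. An adjusted p below 0.05 in this Pi contrast was held by 2666 of the 8190. The median log2 fold change of the 3 subunits with Pi in these libraries was 0.52, against -0.01 over all genes tested. In the difference of the strain contrasts only qcr8 was called, at -0.71 (adjusted p = 0.0394, edgeR). Over all genes, 249 of 8465 were called below 0 there.

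None of the 9 tested genes of the phosphate pathway was called for Pi in either strain by edgeR or DESeq2. At an unadjusted p below 0.05 there was 1 such gene under the Δpac-3 label and 4 under the Δmus-52 label. Over all genes, 413 of 8348 and 3560 of 8190 had such a p in edgeR. The median log2 fold change of the list in libraries labelled Δmus-52 was 0.10, against -0.01 over all genes tested. The list held the regulators nuc-1, nuc-2 and preg, the phosphatases pho-2 and pho-3, the transporters pho-4 and pho-5, and 2 phytases. In the low-Pi strain contrast 2 genes were called lower in Δpac-3 (4.32% of all genes were), pho-4 at -9.83 and pho-5 at -4.95. In high-Pi 3 were called lower (1.9% of all genes were), pho-4 at -7.05, pho-5 at -3.86 and the phytase gene pht-1 (NCU06351) at -1.62. The phytase gene NCU03255 was called higher in high-Pi (7.24% of all genes were), at 2.22. It had 157, 52.6 and 34.5 CPM in Δpac-3 high-Pi against 16.7, 18.4 and 17.0 CPM in Δmus-52 high-Pi. In low-Pi pht-1 had -1.31 and NCU03255 had 1.45, both missing the call by the fold threshold only (adjusted p = 4.29e-06 and 5.89e-06, edgeR). For these genes the sign of the strain contrast was the same in both Pi conditions. The members' difference of strain contrasts, 4.27 and 3.93, stood beside 1 called gene of the list, pho-4 at 2.78 (adjusted p = 0.00844, edgeR), and DESeq2 called 2 of the list. Over all genes, edgeR called 7.53% of 8465 above 0 in this difference. For pho-4 the counts labelled Δpac-3 were few, 25, 37 and 82 in high-Pi against 20, 6 and 13 in low-Pi for libraries I, II and III.

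Some markers of conidia differed between the strain labels. Of con-6, con-8, con-10 and eas, which encodes the hydrophobin of the conidial coat, 3 of 4 were called higher in Δpac-3 in low-Pi and 2 of 4 in high-Pi by edgeR (2 and 3 by DESeq2), and none was called lower. Over all genes edgeR called 5.28% higher in low-Pi and 7.24% higher in high-Pi. The con-6 gene was not called in either, its log2 fold change being 1.13 at low Pi and -0.75 at high Pi. Their summed level was 101, 452 and 467 CPM in Δpac-3 low-Pi against 40.0, 16.8 and 12.7 CPM in Δmus-52 low-Pi, and 36.6, 109 and 185 CPM in Δpac-3 high-Pi against 28.6, 25.1 and 25.2 CPM in Δmus-52 high-Pi, for libraries I, II and III. Most of the sum in Δpac-3 was eas, with 81.1, 388 and 402 CPM in Δpac-3 low-Pi against 6.54, 7.20 and 3.69 CPM in Δmus-52 low-Pi. No marker was at 0. Both Δpac-3 groups had the lowest sum in library I, where the members were also lowest, whereas in Δmus-52 the sum was highest in library I. For Pi in the libraries labelled Δmus-52, where the members fell, none of the 4 was called by edgeR or DESeq2. At an unadjusted p below 0.05 there was 1, beside 3560 of 8190 genes over all in edgeR. The median log2 fold change of the 4 was -0.06, but the markers went both ways. The lowest was con-10 at -1.20 (SE 0.40, adjusted p = 0.0418, edgeR), under the threshold of 1.5. The highest was con-6 at 1.09 (SE 0.55, adjusted p = 0.159, edgeR). The part of conidia in the strain contrasts of the members was not tested. The broadly expressed reference genes actin (NCU04173) and β-tubulin (NCU04054) had strain contrasts between -0.29 and 0.07 and were not called in any contrast.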

How the data were processed

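RNA of 12 libraries was sequenced as paired-end reads. According to the study's methods and the submitters' processing notes, the authors checked reads with FastQC 0.11.7, removed low-quality ends, aligned them by Bowtie2 2.3.4 and deposited raw counts per gene and library without normalization. The counting tool and its use of strand are not given in the sources used here. The authors' tables of the strain comparisons (a mean per strain, fold, log2 fold, p and adjusted p) were not used.

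Counts were fitted in R 4.3.3 using edgeR 4.0.16 (with limma 3.58.1). Strain was compared within the 6 libraries of a Pi condition, Pi within the 6 of a strain, and their interaction in all 12. Genes were kept by filterByExpr (minimum count 10, minimum total 15), scaled by TMM and tested with the quasi-likelihood F test. A call needed a Benjamini-Hochberg adjusted p below 0.05 over all genes tested and a log2 fold change of 1.5 or more in size, the study's thresholds, or the adjusted p alone for the interaction. Fits used a prior count of 0.125, and log2 CPM for correlations a prior count of 2. DESeq2 1.42.0, RLE factors, total counts only, no filter, 1 fit of the 12 libraries, a replicate block, a prior count of 2 and each library left out were tried as alternatives. Named genes were both members, other genes called in opposite directions, the 5 most correlated with each member, 2 neighbours on each side, called genes of the lists and the deleted genes. The complex III subunits were named outside this rule, after the files were seen. The members and lists were chosen with earlier results of these data known. Gene positions are from RefSeq's table of NC12, which matched 9729 of 9730 gene IDs, and product names from the study's list of modulated genes. The primers come from the study's primer list. The procedure was run on simulated data with the same spread for every gene. That spread was smaller than the coefficient of variation of 0.208 in the high-Pi strain contrast and in the Δpac-3 Pi contrast. The wider spread of these contrasts was therefore not simulated.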

Additional observations from a re-analysis of the deposited data

Results flagged for a closer look

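The effect of Pi in libraries labelled Δpac-3 minus that in libraries labelled Δmus-52 was 4.27 for NCU03921 and 3.93 for NCU09629 on the log2 scale. Both genes were chosen for opposite strain contrasts, which fix this difference, so it is a description and no test is read from it. The same holds for the difference of 4.42 for NCU02740, 4.79 for NCU05707, 3.69 for NCU07108, 4.48 for NCU07149 and 4.60 for NCU09603, which were selected by their opposite strain calls. For the genes not selected in this way the interaction was tested in edgeR, at an adjusted p below 0.05. The neighbours had 3.05 (NCU03918) and 3.96 (NCU09627). Among the listed genes, qcr8 (NCU08947), a complex III subunit, had -0.71, and the transporter gene pho-4 (NCU09564) had 2.78. Over all 8465 genes tested, 637 were called above 0 and 249 below, and nothing is read from these single calls.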

How the results depend on the processing

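Of the alternatives that kept all libraries, none changed the sign of a contrast of either gene. The choice of the genes used these contrasts, so this is no support for them. The genes called for Pi in the libraries labelled Δpac-3 were 5 with DESeq2 and 1 with the replicate block, against 0, and those called in the interaction were 1337 with DESeq2 against 886. Leaving out 1 library gave 0 to 17 genes called for Pi in Δpac-3 (17 without Δpac-3 high-Pi III), 392 (without Δmus-52 high-Pi II) to 1585 (without Δpac-3 high-Pi I) in the interaction, and 0 (without Δmus-52 high-Pi II) to 17 (without Δpac-3 high-Pi I) genes called in opposite directions, with 0 to 2 of the members among them. For NCU03921 the Pi contrast lay between -0.046 (without high-Pi III) and 0.71 in Δpac-3, where it was -0.01 without low-Pi I, and between -4.75 (without high-Pi III) and -3.70 in Δmus-52. For NCU09629 it lay between 0.20 (without high-Pi II) and 0.92 (without high-Pi I) in Δpac-3. The cause was not tested. The labels do not say that libraries of one number were grown or prepared together, and the main fits did not treat the number as a pairing. Deviations of same-numbered libraries correlated between -0.16 and 0.36. Of these, 8 of 18 pairs were over 0.1, against 5 of 36 pairs with different numbers, and 6 of 12 libraries correlated best with one of their own number. The replicate block left 7 genes called in opposite directions, with a high-Pi strain contrast of 2.07 for NCU03921 (SE 0.37, against 0.66 without the block) and 2.00 for NCU09629 and a Pi contrast in Δpac-3 of 0.08 and 0.39. For NCU03921 the block also gave a smaller SE in the low-Pi strain contrast (0.12 against 0.31). Its SE for Pi was 0.22 against 0.55 in Δpac-3 and 0.20 against 0.44 in Δmus-52. With all libraries numbered I left out, chosen after seeing the data, 10 genes were called in opposite directions.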

Other observations

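NCU09629 lies near the start of chromosome II, and after its values were seen the ends of all chromosomes were counted. Within 100 kb of an end, 23 of 311 tested genes (7.40%) were called lower in high-Pi in the libraries labelled Δmus-52, against 262 of 7879 (3.33%) elsewhere. At the start of chromosome II, 5 of 28 were called, and at the end of that chromosome 1 of 28. Those 5 include NCU09629 itself, which prompted the count, and its neighbour NCU09627. Both ends of chromosome I had 20% called (3 of 15 and 2 of 10), and the start of VI had 4 of 23. The starts of III, IV, V and VII had 0% called. The counts are a description, with no test, since neighbouring genes are not independent.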
